A study of Mus musculus with 4 samples.

Results

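The genes described here encode the proteins of the cytosolic ribosome. They were chosen by symbol: every gene whose name begins with Rps or Rpl and a digit, together with Rpsa, Rplp0, Rplp1 and Rplp2, without annotated pseudogenes and without the Rps6k kinases. Of the 32227 genes in the files, 87 met this rule and 84 of them had at least 100 UMIs over the 4 libraries. A UMI is a molecular tag that marks 1 captured RNA molecule. The 3 genes below that limit were the paralogues Rpl3l with 51 UMIs, Rpl39l with 11 and Rpl10l with 4, and the genes just above it were Rps23rg1 with 222 and Rps19bp1 with 5300. The choice rests on names, so it also takes in Rps19bp1, Rps23rg1 and the nucleolar protein gene Rpl7l1, which are not structural parts of the ribosome. It leaves out other genes whose products sit on it, such as Fau and Rack1.

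The ribosome is built from a small and a large subunit, and each protein is needed in about equal number. Its messenger RNAs begin with a C followed by a run of pyrimidines (C or T), the 5′ terminal oligopyrimidine or TOP motif, through which the kinase mTOR and the RNA-binding protein Larp1 control their translation and stability as a group. In the corpus of the stomach, the digestive-enzyme-producing chief cells, the acid-secreting parietal cells, the mucus-producing pit and neck cells and the dividing progenitors differ widely in how much protein they make for secretion.

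The libraries were made from dissociated corpus epithelium of C57BL6/J wild-type mice aged 6 to 7 weeks with the PIPseq T20 3′ method, with 1 library per group. The untreated mice received PBS. A single oral dose of L635, a compound toxic to parietal cells, was given at 350 mg/kg, and tissue was taken at day 1, at day 3 from mice that also received AREG, and at day 3 without AREG. AREG, short for amphiregulin, activates the EGF receptor. The labels state neither how it was dosed nor how many mice went into a library. With 1 library per group there is no test: every interval below is a 95% interval for counting error only, and a difference between mice, captures or sequencing cannot be told apart from one between treatments. In the order untreated, day 1, day 3 with AREG and day 3, the libraries held 98893436, 56007532, 81286332 and 62591649 UMIs and gave 13876, 3743, 12912 and 7979 epithelial cells with medians of 2512.5, 2918, 2686 and 3013 UMIs. Pairs of libraries shared 0 to 3 cell barcodes. Marker sums of immune, stromal and endothelial cells were low in the epithelial sums, the highest being 47.0 CPM for 6 endothelial markers at day 3, where CPM is a gene's UMIs scaled to a fixed total per library. The member genes played no part in the clustering that defined cell classes.

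The annotated starts of members on which the results turn are shown first, since a TOP motif lies at the start of the message. Each line gives 30 bases around a start in RefSeq (build GRCm38.p6, not the build of the counts), 15 before and 15 after it. The longest run of C or T on the strand of the gene is in capitals. If a gene had several annotated starts, the one with the longest run is shown. Rpl38 and Rps21 encode short proteins and stood high within the family after L635, Rps6, Rpl14 and Rpl4 encode longer ones and stood low, and Rpl22l1 and Rps27l are paralogues whose ratio to Rpl22 and Rps27 differed between cell classes. The windows lie at chr11:114668565-114668594 (+) for Rpl38, chr2:180257364-180257393 (+) for Rps21, chr4:86857353-86857382 (-) for Rps6, chr9:120571502-120571531 (+) for Rpl14, chr9:64173372-64173401 (+) for Rpl4, chr3:28805493-28805522 (+) for Rpl22l1, chr4:152324421-152324450 (+) for Rpl22, chr9:66946071-66946100 (+) for Rps27l and chr3:90213634-90213663 (-) for Rps27.
Rpl38: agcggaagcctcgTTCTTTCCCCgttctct
Rps21: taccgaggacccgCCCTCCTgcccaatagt
Rps6: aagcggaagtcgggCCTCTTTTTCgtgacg
Rpl14: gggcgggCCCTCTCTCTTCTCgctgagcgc
Rpl4: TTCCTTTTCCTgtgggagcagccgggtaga
Rpl22l1: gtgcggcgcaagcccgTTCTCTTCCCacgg
Rpl22: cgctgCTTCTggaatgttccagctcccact
Rps27l: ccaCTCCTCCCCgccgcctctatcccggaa
Rps27: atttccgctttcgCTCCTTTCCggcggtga

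Of the 84 members, 64 had a start in the RefSeq table, and 28 of these (43.8%) held an uninterrupted run of at least 8 C or T in the window, against 13.9% of all 27025 genes there. The median longest run was 7 bases in members and 5 in all genes. The run was present in 13 of 24 members with coding regions under 400 bases and in 7 of 18 with coding regions of 600 bases or more, so both length groups held it. A run in this window is a description of the annotated start, not a measured TOP motif. In the windows printed for Rpl4, Rps27l and Rpl22 it lies wholly before the start, outside the annotated message.

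Summed over epithelial cells, ribosomal protein messages took a larger share of the RNA in all 3 L635 libraries. They made up 8.71% of epithelial UMIs in untreated mice, 14.7% at day 1, 12.3% at day 3 with AREG and 10.3% at day 3. The share at day 1 was 1.69 times that of untreated mice, a log2 ratio of 0.75 (0.752 to 0.755). At day 3 it was lower than at day 1, by a log2 ratio of -0.51 (-0.508 to -0.505), and above untreated mice by 0.25. With AREG it was 0.25 above day 3 without AREG and 0.50 above untreated mice. Median shares over single cells were 7.24% in untreated mice, 11.1% at day 1, 10.0% at day 3 with AREG and 7.62% at day 3, and ranked the libraries alike. The day 3 difference from untreated mice varied with cell depth. In cells of 1000 to 3000 UMIs the share was 7.76% at day 3 and 8.01% in untreated mice. At 3000 to 10000 UMIs it was 9.34% and 9.46%. Day 3 was higher from 500 to 1000 UMIs, at 7.53% against 6.73%, and from 10000 UMIs, at 12.0% against 8.35%. The day 1 and AREG shares were above untreated in each depth group.

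These library shares moved with the most abundant other messages. A list of 20 digestive enzyme, mucin, gastrokine and acid pump genes took 37.5% of epithelial UMIs in untreated mice, 18.1% at day 1, 23.8% at day 3 with AREG and 26.8% at day 3. Its part in the result was not examined by itself. The genes left out below were chosen by abundance and overlap the list only in part. They include Pgc, Clps, Gkn1 and Atp4a from it, but also S100a6, Sprr2a1, Cox4i1 and Tmsb4x. With the mitochondrial genes they took 47.8% of epithelial UMIs in untreated mice, 30.1% at day 1, 33.8% at day 3 with AREG and 35.3% at day 3. Without mitochondrial genes and the 20 most abundant other genes, the log2 ratio for day 1 over untreated was 0.33 and that for day 3 over untreated was -0.06, the opposite direction. The ratios for day 3 over day 1, AREG over day 3 and AREG over untreated were then -0.39, 0.22 and 0.15. Without chief-like cells, day 3 over untreated gave 0.078, AREG over untreated 0.32 and day 1 over untreated 0.56. The day 1 value also rested on 1 cluster, led by S100a6, Plac9, Sprr1a, Wfdc2 and Msln and left unnamed. It held 2543 of the 3743 epithelial cells of that library and 5135652 of the library's 5679843 member UMIs. Without that cluster the log2 ratios were 0.37 for day 1 over untreated and -0.12 for day 3 over day 1. Barcodes with under 50 UMIs, which hold free RNA, had member shares of 7.30% in untreated mice, 12.6% at day 1, 8.81% at day 3 with AREG and 7.85% at day 3.

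Cell classes spanned a wider range than the libraries did. In untreated mice the share was lowest in chief-like cells at 1.71% and endocrine-like cells at 6.76%. It was 8.21% in pit-like and 8.46% in parietal-like cells. Tuft-like cells at 12.5%, neck-like cells at 12.6% and proliferating-like cells at 14.1% were the highest, and the counting intervals of the first 2 overlapped (12.4 to 12.6% and 12.5 to 12.6%). Chief-like cells spent 83.2% of their UMIs on the secretory list, against 9.92% in parietal-like and 25.4% in proliferating-like cells. With the abundant genes left out the chief-like share was 9.83%, below the 22.4% of proliferating-like, 21.1% of neck-like and 11.7% of parietal-like cells and above the 8.12% of endocrine-like cells.

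**Figure D1:**
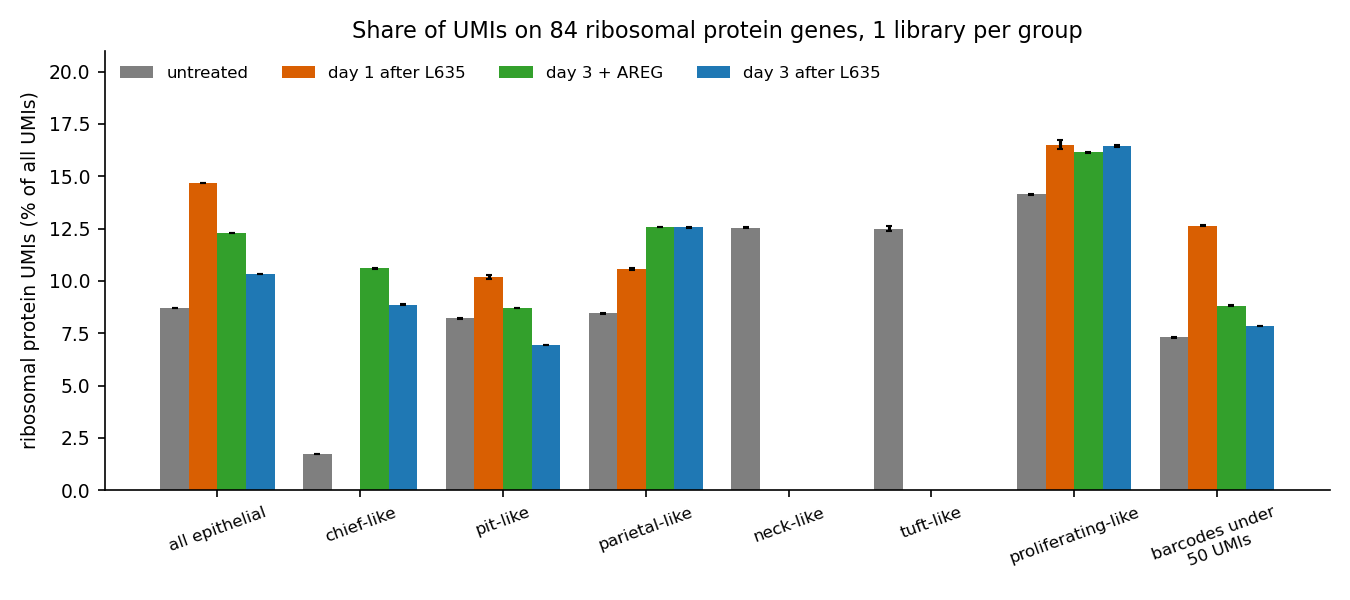
Percent of all UMIs that fell on the 84 ribosomal protein genes (y axis) in all epithelial cells, in named cell classes other than endocrine-like, each with at least 100 cells, and in barcodes with under 50 UMIs. Bars are the 4 libraries and error bars are 95% counting intervals. Untreated chief-like cells sit lowest at 1.71%, and proliferating-like cells lie between 14.1% and 16.5% in all 4 libraries.

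Chief-like cells showed the widest difference between libraries. Their share was 10.6% at day 3 with AREG and 8.85% at day 3, against 1.71% in untreated mice, differences of 6.19-fold and 5.17-fold. Without the abundant genes the shares were 21.4% with AREG and 18.6% at day 3, against 9.83% in untreated mice, a much smaller difference in the same direction. The class at day 1 had 97 cells and was not compared. A chief-like cell held a mean of 608 member UMIs at day 3, against 139 in untreated mice, and its median total was 3037 UMIs at day 3 and 4598 in untreated mice. Medians of member UMIs per cell were 269 at day 3 and 63 in untreated mice, and the estimate of free RNA was 3.85 and 7.09 member UMIs per cell in those libraries. Different clusters made up the class: 93.3% of untreated chief-like cells were in a cluster led by Chia1, Pla2g1b, Clps and Cblif, whereas 87.1% of those at day 3 were in one led by Gkn3, Try4, Pnliprp2 and Chia1 that also carried the neck mucin Muc6. Within the first cluster the share was 4.32% at day 3 with AREG and 3.85% at day 3, against 1.62% in untreated mice, which is 2.37-fold for day 3. The secretory list took 76.0% of UMIs in that cluster at day 3 and 83.8% in untreated mice.

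Parietal-like cells had a share of 10.6% at day 1, 12.6% at day 3 with AREG and 12.6% at day 3, against 8.46% in untreated mice. Most of them came from a cluster led by Hamp2 and Atp4b in untreated mice, from one led by Obp2a, Hamp2 and Sprr1a at day 1 and from one led by Atp4b, Tnni3 and Smim38 in both day 3 libraries. Within the last of these, the share was 13.4% at day 3 and 10.8% in untreated mice. Within the cluster led by Hamp2 and Atp4b it ran the other way, at 7.06% in 102 cells at day 3 and 8.44% in untreated mice.

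Proliferating-like cells, 1 cluster led by Ube2c and Birc5, had 16.5% at day 1, 16.1% at day 3 with AREG and 16.4% at day 3, against 14.1% in untreated mice. The day 1 value came from 112 shallow cells with a median of 818.5 UMIs. The cluster led by S100a6, with 2543 day 1 cells, was left out of this class. It had 9 proliferation markers up. In a finer clustering, at Leiden resolution 2, 47.1% of its cells were proliferating-like and the rest were mostly pit-like. Without the abundant genes the shares were 21.5%, 22.8% and 21.6% in those libraries, against 22.4% in untreated mice, so that the day 1 and day 3 values then lay below the untreated one.

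Pit-like cells had 10.2% at day 1, 8.70% at day 3 with AREG and 6.93% at day 3, against 8.21% in untreated mice. The day 1 value came from 440 cells with a median of 777 UMIs, and without the abundant genes it was below the untreated one, at 15.5% against 17.5%. The shares without those genes were 15.9% at day 3 with AREG and 12.8% at day 3, also below the untreated one. Day 1 cells of the cluster led by S100a6 were again left out of the class. The class as a whole was lower at day 3 than in untreated mice, by a log2 ratio of -0.24 (-0.248 to -0.241), but each of its 4 clusters with at least 100 cells in both libraries was higher at day 3. In the cluster that held 71.8% of untreated pit-like cells, led by Gkn1 and Gkn2, the share was 10.2% at day 3 and 8.53% in untreated mice. In a second pit-like cluster led by Duox2, which held 45.5% of pit-like cells at day 3, it was 5.15% at day 3 and 4.14% in untreated mice. The log2 ratios in these 2 clusters were 0.26 and 0.32, and in the other 2, led by Enpp2 and by Lypd8 and Isg15, they were 0.022 and 0.016. The Duox2 cluster held 29.5% of pit-like cells with AREG, where its share was 5.58%. Over all 10 epithelial clusters with at least 100 cells in both libraries, the share was higher at day 3 than in untreated mice in 9, with a median log2 ratio of 0.27, and the exception was the Hamp2 and Atp4b cluster of parietal-like cells. None of these cluster values was recomputed without the abundant genes. In the Gkn1 and Gkn2 cluster the secretory list took 35.2% of UMIs at day 3 and 42.8% in untreated mice. In the Duox2 cluster it took 43.3% and 50.3%.

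The difference with AREG was smaller in the median cluster than across the whole library. In all epithelial cells AREG over day 3 gave 0.25, in pit-like cells 0.33 and in chief-like cells 0.26. In parietal-like cells it was 0.0016 (-0.001 to 0.004) and in proliferating-like cells -0.026. Within 15 clusters with at least 100 cells in both libraries the ratio was above 0 in 10 and below 0 in 5, with a median of 0.055 and a range from -0.15 to 0.32. An unnamed epithelial cluster led by Dmbt1, Creb3l4 and Agr2 had a share of 18.4% with AREG and 17.7% without, and it held 2372 of 12912 epithelial cells with AREG and 596 of 7979 without.

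Among single members, Rpl41 had the most UMIs over the 4 libraries, which encodes the shortest ribosomal protein. It had 2919 CPM in untreated mice, 5811 at day 1, 4925 at day 3 with AREG and 4470 at day 3. Next came the acidic stalk gene Rplp1, whose product recruits elongation factors, with 1759, 4291, 3421 and 3101 CPM in the same order. The small subunit gene Rps14 followed with 2283, 3631, 2688 and 2629 CPM. Rpl37a had 1460, 4569, 2532 and 2469 CPM, and Rpl13 had 2600, 3228, 2450 and 1978 CPM. Of these 5 genes, Rpl13 alone was lower at day 3 than in untreated mice.

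At day 1, 55 of 84 members were at least 1.5-fold higher than in untreated mice on the scale of CPM + 1 and 0 were as much lower. Of all 17654 genes with at least 100 UMIs, 34.2% were called higher and 5.37% lower. The median log2 ratio was 0.71 over the members and 0.32 over all genes, and 83 of 84 members were above 0. The exception was Rps23rg1, at under 1 CPM in each library. The top members were Rpl37a at 1.64, Rps12 at 1.56, Rpl38 at 1.47 and Rps2 at 1.46, and the lowest of the abundant members was Rpl4 at 0.04. Small subunit members had a median of 0.79 and 27 of 35 called, and large subunit members 0.65 and 28 of 49. The count was 19 of 84 without the abundant genes and 27 without the cluster led by S100a6. The share of all genes called was not computed for these 2 settings, so the counts cannot be set against the 34.2%.

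At day 3, 25 of 84 members were at least 1.5-fold lower than at day 1 and 0 higher, against 11% of all genes lower and 11.9% higher. The median was -0.49 over members and 0.07 over all genes. The lowest were Rpl37a at -0.89, Rpl9 at -0.86 and Rpl14 at -0.83, and Rps27l at -0.01 and Rpl4 at -0.09 were nearest to 0 among the abundant members. Without the cluster led by S100a6, the count of lower members was 1, and the share of all genes was not computed for that setting.

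With AREG, 2 of 84 members, the large subunit genes Rpl21 and Rpl29, passed 1.5-fold above day 3 and 0 below, against 0.838% and 1.67% of all genes. Rpl21 had 969 CPM with AREG and 632 without, and Rpl29 had 553 and 366. The shift was small and shared: 81 of 84 members were above 0, with a median log2 ratio of 0.28, against -0.02 over all genes. The other 3 were Rps27rt, Rpl36al and Rps19bp1. Rps27rt is a near-identical copy of Rps27, so the split of reads between these 2 genes is uncertain. The AREG and day 3 libraries are also both compared with untreated mice, which they share as a baseline: 35 members were at least 1.5-fold higher with AREG and 0 lower, against 32.9% and 2.87% of all genes. At day 3 without AREG, 22 were higher and 0 lower, against 35.7% and 3.04% of all genes. Without the abundant genes the counts of higher members were 11 with AREG and 6 at day 3, and without chief-like cells the count at day 3 was 10. For these settings the share of all genes called was not computed.

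**Figure D2:**
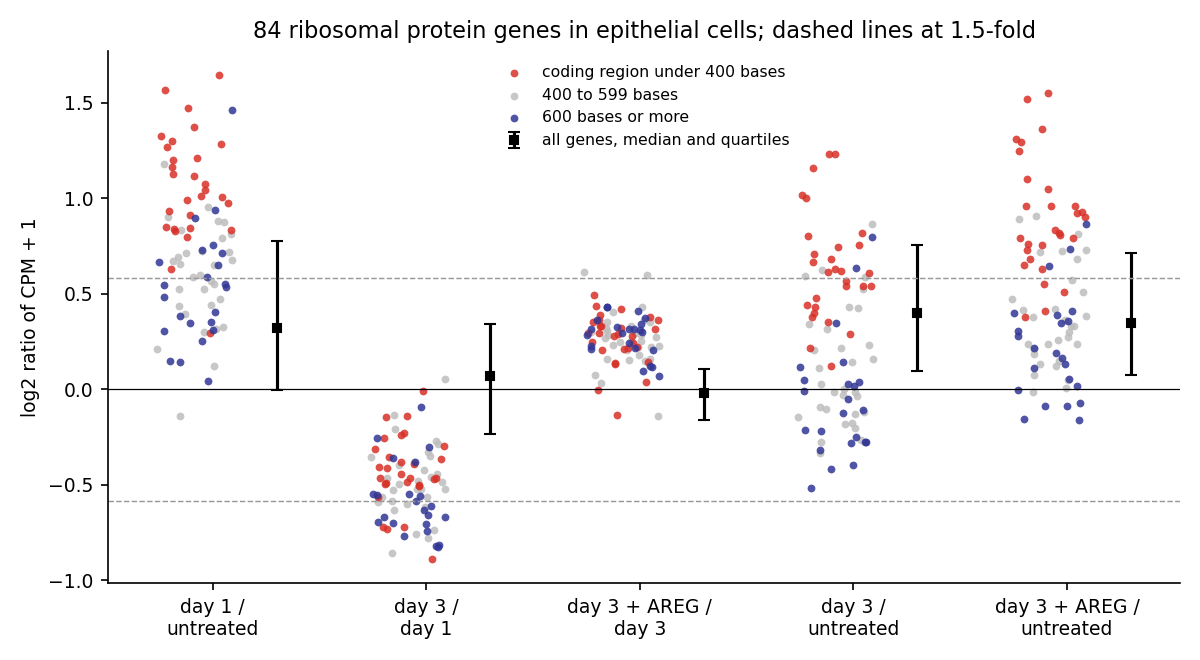
Log2 ratio of CPM + 1 for each of the 84 members (points) in 5 comparisons of summed epithelial cells, coloured by coding length in bases. Black squares and bars are the median and quartiles of all 17654 genes, and dashed lines mark 1.5-fold. Members sit above the all-gene median at day 1 over untreated, below it at day 3 over day 1, and spread widely by coding length for day 3 over untreated.

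The members did not all move by the same amount. Each member was next expressed as a share of the summed member UMIs, which removes the change of the family as a whole. On this scale 28 of 84 members differed by at least 1.3-fold between day 1 and untreated mice, 13 higher and 15 lower, and 33 differed between day 3 and untreated mice, 16 higher and 17 lower. Only 4 did between day 3 and day 1, and 3 between AREG and day 3. AREG over untreated gave 28, and AREG was not set against day 1. The share of all genes past 1.3-fold around their own centre was not computed, so these counts have none beside them. On the scale of CPM + 1, the quartiles for day 1 over untreated were 0.48 and 0.96 over members and -0.001 and 0.78 over all genes. For day 3 over untreated they were -0.10 and 0.59 over members and 0.096 and 0.76 over all genes.

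The members with the largest gains in share against untreated mice at day 3 had short coding regions. Rps21, a small subunit protein, was 0.584% of member UMIs in untreated mice, 0.898% at day 1, 1.21% at day 3 with AREG and 1.16% at day 3. Rpl38, known in mice for its role in translating Hox messages, was 0.944%, 1.55%, 1.72% and 1.87% in that order. Rps29 was 1.32%, 1.93%, 2.67% and 2.47%. Their within-family log2 ratios for day 3 over untreated were 0.99, 0.99 and 0.91. At the other end stood Rpl3 at -0.76, which lies near the peptidyl transferase centre, Rps6 at -0.66, the substrate of the S6 kinases, and Rpl13 at -0.64. Rpl3 was 1.27% in untreated mice, 0.834% at day 1, 0.808% at day 3 with AREG and 0.746% at day 3.

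Coding lengths were available for all 84 members. Across the 84 genes, the within-family log2 ratio correlated with coding length at a Spearman rho of -0.63 for day 1 over untreated, -0.70 for day 3 over untreated and -0.72 for AREG over untreated, 3 comparisons that share the untreated library. For day 3 over day 1 rho was -0.41, and for AREG over day 3 it was 0.05. These values describe genes measured in the same libraries and are not independent points. Annotated transcript length, which for some members includes a long untranslated end, gave -0.34 for day 1 and -0.36 for day 3 over untreated. Each message is counted once by its 3′ end whatever its length, so no length scaling was applied. The split into lengths was made after the values had been seen.

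The 29 members with coding regions under 400 bases and the 23 with 600 bases or more differed in direction at day 3. The short ones made up 4.07% of epithelial UMIs at day 3 and 2.53% in untreated mice, a log2 ratio of 0.69 (0.684 to 0.690), and all 29 were above 0. The long ones made up 2.41% at day 3 and 2.56% in untreated mice, a log2 ratio of -0.08 (-0.087 to -0.080), with 9 of 23 above 0. With AREG against untreated mice the ratios were 0.93 for the short and 0.19 for the long members, and at day 1 they were 1.13 and 0.53. AREG over day 3 gave 0.25 for the short and 0.27 for the long members. The 32 members between these lengths made up 3.85% at day 3 and 3.63% in untreated mice.

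Among other genes the trend with length went the other way. Of genes outside the family with a mean of at least 10 CPM, the 490 with coding regions under 400 bases had a median log2 ratio of 0.20 for day 3 over untreated and the 1738 with 2000 bases or more had 0.88. For the members, the median was 0.61 under 400 bases, 0.016 for the next group up to 600 bases and -0.11 from there up to 1000 bases. For day 1 over untreated the corresponding medians of other genes were 0.15 and 0.87, and those of members were 1.04, 0.62 and 0.55.

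**Figure D3:**
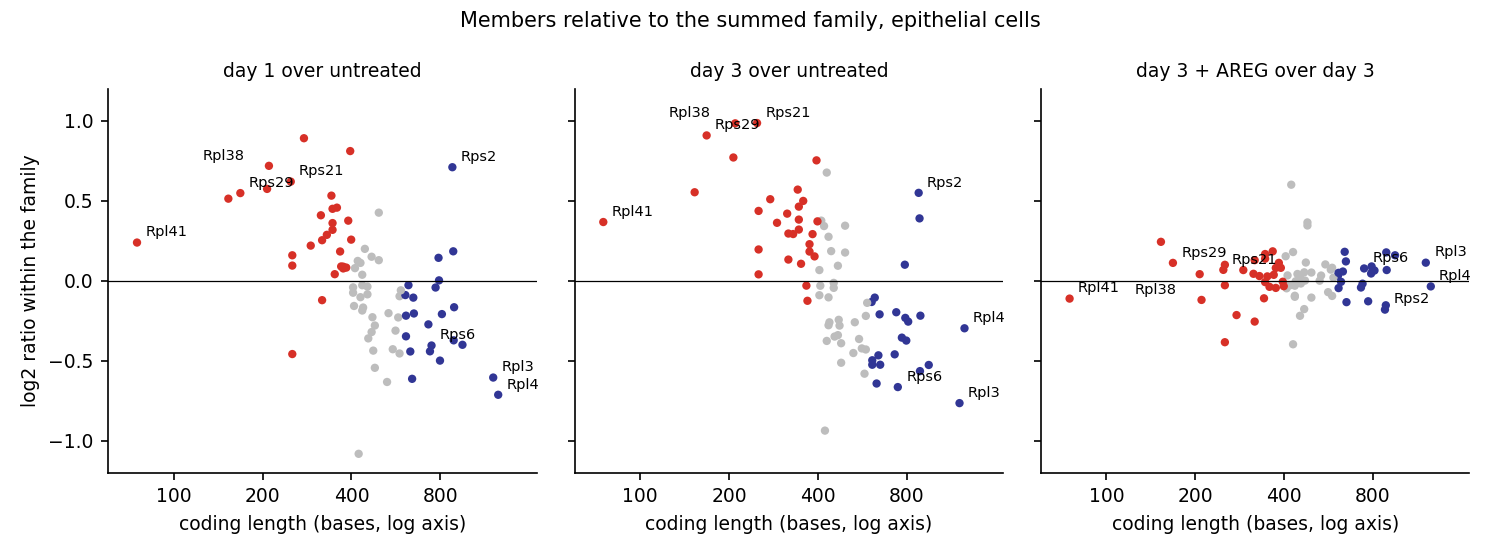
Within-family log2 ratio of each member (y axis) against its coding length in bases (x axis, log scale) in epithelial cells, with red points under 400 bases, blue points at 600 bases or more and grey points between. Most short members lie above 0 and most long ones below in both comparisons with untreated mice, with Rps2 as an exception, and no slope is seen for AREG over day 3.

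The short members' share of the family was lower in untreated cells of every class compared. It was 29.03% of member UMIs over all untreated epithelial cells, 37.6% at day 1, 39.3% at day 3 with AREG and 39.4% at day 3. In pit-like cells it was 28.6%, 38.5%, 40.1% and 40.6% in that order, and in proliferating-like cells 26.6%, 37.7%, 38.5% and 37.5%. Untreated chief-like cells had 29.6% and neck-like cells 27.7%. Parietal-like cells stood apart within the untreated library with 33.8%, and had 39.3%, 39.0% and 38.8% in the other libraries. Rps21 alone was 0.971% of member UMIs in untreated parietal-like cells and 0.435% to 0.572% in pit-like, neck-like, chief-like, proliferating-like and tuft-like cells. Free RNA followed its library, with 30.7% in untreated mice, 36.6% at day 1, 39.9% at day 3 with AREG and 39.5% at day 3. A difference that runs through every class and the free RNA of a library cannot be told apart here from one made when that library was prepared.

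**Figure D4:**
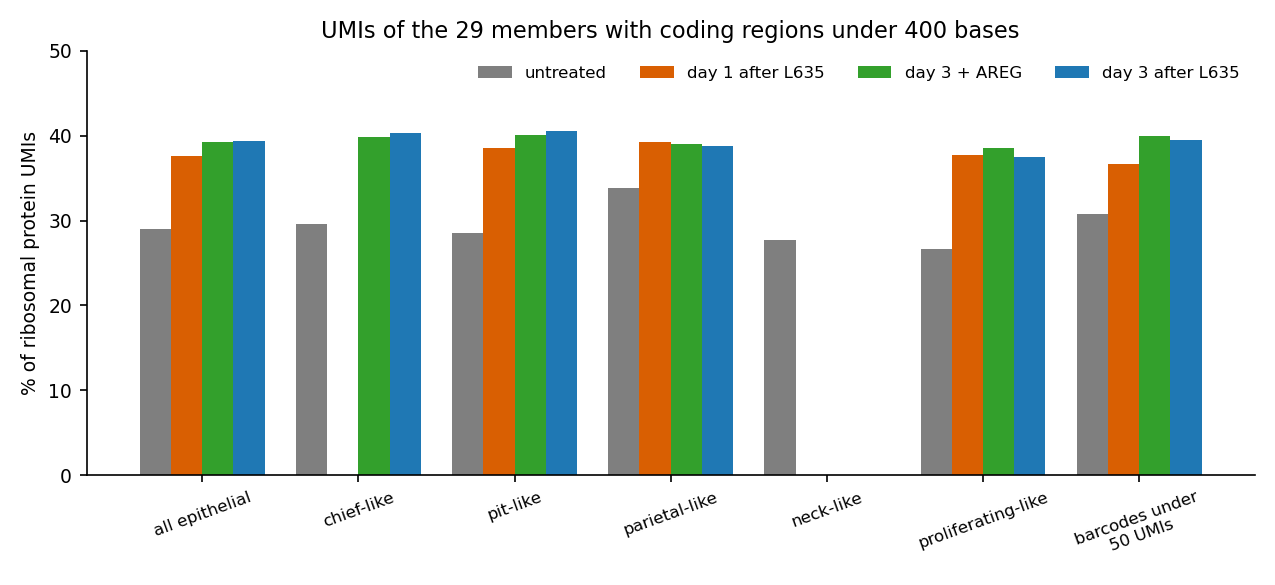
UMIs of the 29 members with coding regions under 400 bases as percent of all ribosomal protein UMIs (y axis), by cell class and in barcodes with under 50 UMIs; bars are the 4 libraries. Untreated bars lie between 26.6% and 33.8%, and the bars of the other libraries between 36.6% and 40.6%.

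Rps2 was an exception to the trend with length. It encodes a small subunit protein with a coding region of 879 bases and had a within-family log2 ratio of 0.71 for day 1 over untreated. It made up 0.369% of member UMIs in untreated mice, 0.603% at day 1, 0.477% at day 3 with AREG and 0.540% at day 3. In untreated parietal-like cells it was 0.631%, against 0.218% to 0.353% in those 5 classes. Rpl4, a large subunit protein, was lowest at day 1, at 0.808% against 1.32% in untreated mice, and was 1.05% at day 3 with AREG and 1.08% at day 3. Rps12, with 396 coding bases, was high at day 1, at 1.64% against 0.936% in untreated mice, and was 1.58% at day 3. Rpsa, which also serves as a laminin receptor precursor, had 1159 CPM in untreated mice, 2221 at day 1, 1930 at day 3 with AREG and 1803 at day 3.

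The 3 stalk proteins, which form a complex on the large subunit in fixed proportion, differed from each other. For day 1 over untreated the log2 ratios of CPM + 1 were 1.29 for Rplp1, 1.07 for Rplp2 and 0.35 for Rplp0, whose coding regions are 342, 345 and 951 bases long. For day 3 over untreated they were 0.82, 0.57 and -0.28. Rpl5 and Rpl11, which bind Mdm2 when not built into ribosomes and so link ribosome assembly to p53, moved together. Rpl5 had 593 CPM in untreated mice, 892 at day 1, 755 at day 3 with AREG and 605 at day 3. Rpl11 had 1127, 1652, 1361 and 1118 CPM in that order. Their log2 ratios were 0.59 and 0.55 for day 1 over untreated, -0.56 for both for day 3 over day 1, and 0.32 and 0.28 for AREG over day 3.

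Paralogue ratios within 1 library do not depend on total UMIs or on secretory messages. Rpl22l1 and its parent Rpl22, which in mice represses Rpl22l1 expression, stood at 2.40 UMIs of Rpl22l1 per UMI of Rpl22 in untreated chief-like cells (2.12 to 2.71). The ratio was 1.64 in endocrine-like, 1.295 in neck-like, 1.29 in tuft-like, 0.836 in proliferating-like, 0.667 in pit-like and 0.551 in parietal-like cells. The intervals of neck-like and tuft-like cells, 1.23 to 1.37 and 1.02 to 1.64, overlapped. The chief-like ratio was 1.16 at day 3 with AREG and 1.28 at day 3, and pit-like cells had 0.456 with AREG and 0.387 at day 3. Within the chief-like cluster that held most untreated cells it was 2.12 at day 3, against 2.46 in untreated mice, with overlapping intervals of 1.80 to 2.50 and 2.17 to 2.80. Parietal-like cells had 0.455 at day 1, 0.681 at day 3 with AREG and 0.695 at day 3, against 0.551 in untreated mice. Pit-like cells at day 1 had 0.867, against 0.667 in untreated mice. Free RNA lay between 0.512 and 0.753 in the 4 libraries and was 0.675 in untreated mice. The untreated chief-like, endocrine-like, neck-like, tuft-like and proliferating-like values stood above this range, and the pit-like and parietal-like ones did not.

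Rps27l, a p53-responsive paralogue of Rps27, was 0.750 per UMI of Rps27 in untreated chief-like cells (0.6998 to 0.803), 0.306 in parietal-like, 0.278 in pit-like, 0.274 in proliferating-like and 0.182 in neck-like cells. Free RNA had 0.327 in untreated mice, 0.236 at day 1, 0.282 at day 3 with AREG and 0.309 at day 3, so among these classes the untreated chief-like ratio alone stood above it. Chief-like cells had 0.223 at day 3 with AREG and 0.247 at day 3. Within the cluster that held most untreated chief-like cells the ratios were 0.618 with AREG and 0.540 at day 3, against 0.806 in untreated mice, a smaller difference. In parietal-like cells it was 0.184 at day 1, against 0.306 in untreated mice, and it was 0.414 at day 3 with AREG and 0.401 at day 3. Over all epithelial cells Rps27l had 427 CPM at day 1, 495 at day 3 with AREG and 424 at day 3, against 348 in untreated mice. Of the L635 libraries, only day 1 and day 3 without AREG were nearly level. Rps27 itself had 2233 CPM at day 1, 2150 at day 3 with AREG, 1685 at day 3 and 1239 in untreated mice. Reads of Rps27 may be split with Rps27rt, which affects this ratio.

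**Figure D5:**
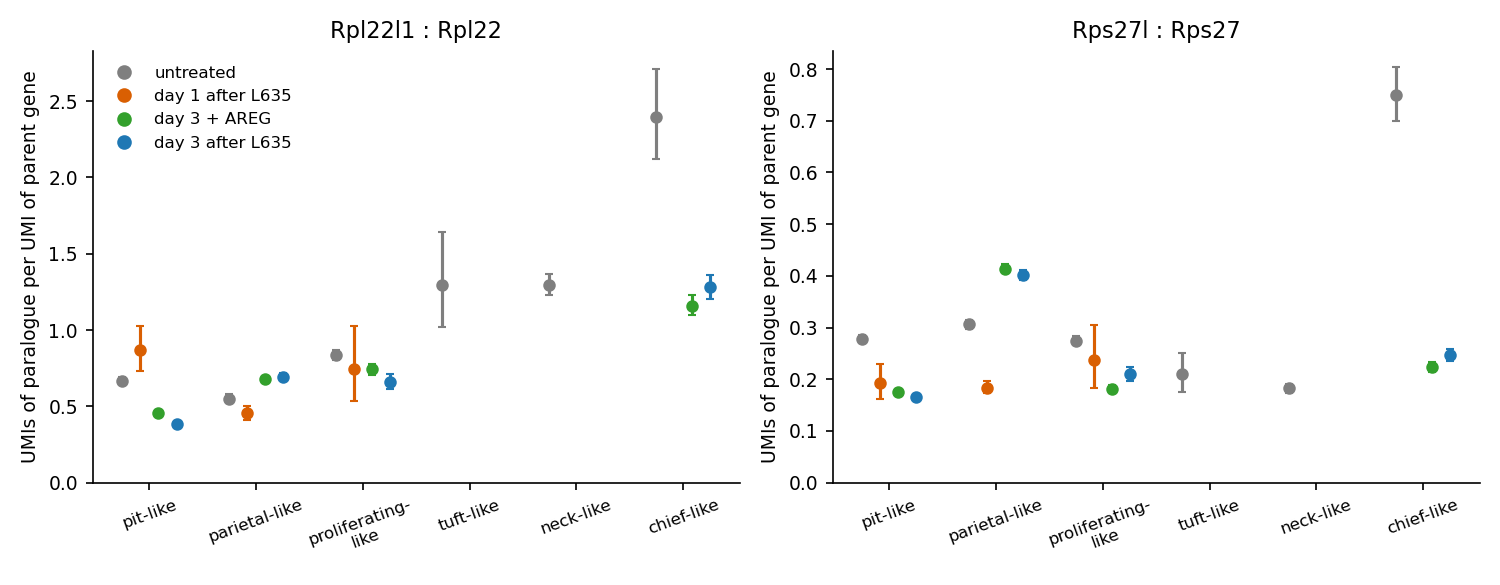
UMIs of Rpl22l1 per UMI of Rpl22 (left) and of Rps27l per UMI of Rps27 (right), by named cell class other than endocrine-like, each with at least 100 cells; points are the 4 libraries and bars are 95% counting intervals. Untreated chief-like cells are highest in both panels, at 2.40 and 0.750.

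For the pair Rpl36al and Rpl36a the chief-like ratio was 2.62 in untreated mice, 0.731 at day 3 with AREG and 1.07 at day 3. It was lower with AREG than without it in all 4 classes compared: 0.970 and 1.25 in pit-like, 0.944 and 1.13 in parietal-like, 0.716 and 0.866 in proliferating-like and 0.731 and 1.07 in chief-like cells, with intervals that did not overlap. Free RNA had the same order, with 0.945 with AREG and 1.31 without. In the chief-like cluster led by Chia1 the intervals overlapped, at 1.10 (0.961 to 1.27) with AREG and 1.303 without (1.17 to 1.45). Rpl36a had 924 CPM with AREG and 710 without, and Rpl36al had 767 and 769. Over all epithelial cells Rpl7l1 was low beside Rpl7, at 0.0484 to 0.0592 per UMI of Rpl7 in the 4 libraries. In untreated chief-like cells it was 0.103 (0.0878 to 0.120), from 182 UMIs. Untreated pit-like cells had 0.0488, proliferating-like 0.0551, neck-like 0.0587 and parietal-like 0.0666. The interval of endocrine-like cells, 0.0546 to 0.110, overlapped the chief-like one. Chief-like cells had 0.0554 at day 3 with AREG and 0.0566 at day 3.

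Other RNAs, most of them messages of the translation machinery and many also TOP messages, were counted beside the members. The list also holds the non-coding RNA Gas5 and the genes Cct4, Nap1l1 and Hnrnpa1, which are not part of that machinery. Of 23 listed genes, 12 were at least 1.5-fold higher at day 1 than in untreated mice and 0 lower, against 34.2% and 5.37% of all genes, with a median log2 ratio of 0.59. Gas5 at 0.91, Nap1l1 at 1.71 and Hnrnpa1 at 1.44 were among these 12. For day 3 over day 1, 5 were lower, against 11% of all genes, with a median of -0.41, and for AREG over day 3 the median was 0.20 with 21 of 23 above 0. Summed, they were 0.964% of UMIs in untreated mice, 1.53% at day 1, 1.41% at day 3 with AREG and 1.24% at day 3. The elongation factor gene Eef1a1 had 1778, 2569, 2693 and 2030 CPM in that order. Fau, whose product joins the ribosome after cleavage, had 962, 1452, 1454 and 1188 CPM. Rack1 had 700, 1430, 1102 and 1026 CPM. The nucleolar ribosome assembly factor Npm1 was highest at day 1, with 436 CPM against 218 in untreated mice, and had 238 CPM at day 3 with AREG and 208 at day 3.

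Among 22 regulators of ribosome synthesis and of TOP messages, 15 were at least 1.5-fold higher at day 1 than in untreated mice and 0 lower, and 0 passed 1.5-fold between AREG and day 3. Larp1 had 39.9 CPM in untreated mice, 78.4 at day 1, 97.6 at day 3 with AREG and 110 at day 3. Myc, which drives transcription of ribosome genes, had 15.2, 40.1, 19.98 and 21.6 CPM. Ubtf, a factor of RNA polymerase I, had 21.9, 49.0, 31.6 and 28.5 CPM. The list mixes activators and inhibitors. Eif4ebp1, an inhibitor of translation initiation, had 11.9, 35.0, 16.8 and 18.8 CPM in the same order. These genes are low in abundance, and 34.2% of all genes were also called higher at day 1. Of 10 genes of the p53 pathway, 7 were called higher at day 1 than in untreated mice and 0 lower. Mdm2 had 8.44, 19.3, 17.8 and 17.4 CPM, and Cdkn1a had 156, 170, 80.9 and 118 CPM in the order untreated, day 1, day 3 with AREG and day 3.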

How the data were processed

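RNA was counted in single cells of 4 libraries, 1 per group. The deposited values are raw UMI counts per gene and barcode, which the authors left unnormalised. Per the submitters' processing notes, reads were placed on mm39. Which programs aligned and counted them, and how reads shared with pseudogenes were treated, is not given in the sources used here. Gene names are those of the files. Barcodes with at least 500 UMIs, 200 genes and at most 50% mitochondrial UMIs were kept as cells, and doublets were not removed. All cells were clustered together with scanpy 1.11.5 (2000 variable genes without ribosomal protein genes, 40 components, 15 neighbours, Leiden resolution 1), giving 28 clusters. Clusters were named from marker genes and called X-like; rules that left clusters unnamed when under 60% of their cells kept the class at resolution 2, and counted a cluster as epithelial at 20 CPM of Epcam, were set after seeing the data. Counts were summed per library and class, scaled to CPM over all UMIs, and set against each other as log2 ratios after adding 1 CPM, so that ratios of low genes are understated; calls were made at 1.5-fold, and at 1.3-fold within the family. Intervals are exact Poisson for sums and conditional exact binomial for ratios (95%) and cover counting error only. The steps were tested on simulated counts. The genes named within the family were the 5 highest and 5 lowest members with at least 50 CPM per comparison, the 5 with the most UMIs, the paralogue pairs, the stalk genes, Rpsa, Rpl5 and Rpl11; Rps23rg1 and Rps19bp1 were named after their values were seen. Coding lengths are those of the longest principal protein-coding transcript in GENCODE M21, matched by gene identifier. Starts are from RefSeq, taking for each gene the start with the longest run of C or T. The members and lists were chosen with earlier results of these data known. Some genes that the naming rule selects are not reported here. Alternatives are described in the closing section.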

Additional observations from a re-analysis of the deposited data

Results flagged for a closer look

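In 2 comparisons the share of ribosomal protein UMIs differed in opposite directions between cell classes. For day 3 over day 1 the log2 ratio was 0.25 in parietal-like cells and -0.56 in pit-like cells. For day 3 over untreated it was 2.37 in chief-like, 0.57 in parietal-like and 0.22 in proliferating-like cells, and -0.24 in pit-like cells. The difference between classes was not tested, since each group is 1 library. Without the abundant genes the shares were 18.6% at day 3 and 9.83% in untreated mice in chief-like cells, and 21.6% at day 3 and 22.4% in untreated mice in proliferating-like cells, the opposite direction. In pit-like cells they were 12.8% at day 3 and 17.5% in untreated mice, and in parietal-like cells 15.9% and 11.7%. In the 4 pit-like clusters with at least 100 cells in both libraries, taken singly, the ratio for day 3 over untreated was 0.26 (led by Gkn1 and Gkn2), 0.32 (Duox2), 0.022 (Enpp2) and 0.016 (Lypd8 and Isg15).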

How the results depend on the processing

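With 1 library per group no library could be left out and no test was run. No paired analysis was possible because each group is 1 library. Of 212 alternative values, 84 stayed within counting error of the reported value or, for counts, within 1.5 times of it, 119 moved further and 9 took the opposite direction; counting intervals are so narrow that most small shifts fall outside them. The causes were not tested, except where leaving out genes or cells itself sets the value. Proliferating-like cells had under 100 cells at day 1 above 1000 UMIs and gave no value there. The alternatives by coding length, without chief-like cells and without the day 1 cluster led by S100a6 were chosen after seeing the data. Shares of all genes called were computed for the reported setting at 1.5-fold only. The counts of members called, or differing within the family, below have none beside them. With at least 1000 UMIs per cell, the log2 ratios over epithelial cells were 0.75 for day 1 over untreated, -0.50 for day 3 over day 1, 0.25 for AREG over day 3 and 0.50 for AREG over untreated. For pit-like cells this gave 0.28 for day 1 over untreated, -0.53 for day 3 over day 1 and 0.33 for AREG over day 3. In parietal-like cells the values were 0.29 for day 1 over untreated. With at most 20% mitochondrial UMIs, the log2 ratios over epithelial cells were 0.74 for day 1 over untreated, -0.49 for day 3 over day 1, 0.26 for AREG over day 3, 0.25 for day 3 over untreated and 0.51 for AREG over untreated. For pit-like cells this gave 0.33 for day 1 over untreated and -0.58 for day 3 over day 1. In chief-like cells the values were 0.27 for AREG over day 3. Values in parietal-like cells were 0.30 for day 1 over untreated, 0.27 for day 3 over day 1 and 0.0092 for AREG over day 3. Without the deepest 1% of cells, the log2 ratios over epithelial cells were 0.67 for day 1 over untreated, -0.47 for day 3 over day 1, 0.26 for AREG over day 3, 0.20 for day 3 over untreated and 0.46 for AREG over untreated. In pit-like cells the values were -0.57 for day 3 over day 1 and 0.35 for AREG over day 3. Values in chief-like cells were 0.16 for AREG over day 3. For parietal-like cells this gave 0.33 for day 1 over untreated, 0.21 for day 3 over day 1 and 0.0057 for AREG over day 3. In proliferating-like cells the values were 0.20 for day 1 over untreated, -0.029 for day 3 over day 1 and -0.036 for AREG over day 3. Without the deepest 1% of cells, the counts of members differing within the family were 5 for AREG over day 3. With free RNA subtracted, the log2 ratios over epithelial cells were 0.75 for day 1 over untreated, -0.50 for day 3 over day 1, 0.25 for AREG over day 3, 0.24 for day 3 over untreated and 0.50 for AREG over untreated. In pit-like cells the values were 0.30 for day 1 over untreated. Values in parietal-like cells were 0.31 for day 1 over untreated. Without mitochondrial and the 20 most abundant other genes, the log2 ratios over epithelial cells were 0.33 for day 1 over untreated, -0.39 for day 3 over day 1, 0.22 for AREG over day 3, -0.063 (the opposite direction) for day 3 over untreated and 0.15 for AREG over untreated. In pit-like cells the values were -0.17 (the opposite direction) for day 1 over untreated, -0.28 for day 3 over day 1 and 0.32 for AREG over day 3. Values in chief-like cells were 0.20 for AREG over day 3. For parietal-like cells this gave 0.20 for day 1 over untreated, 0.24 for day 3 over day 1 and 0.030 for AREG over day 3. In proliferating-like cells the values were -0.060 (the opposite direction) for day 1 over untreated, 0.0058 (the opposite direction) for day 3 over day 1 and 0.076 (the opposite direction) for AREG over day 3. Without mitochondrial and the 20 most abundant other genes, the counts of members called were 19 for day 1 over untreated, 15 for day 3 over day 1, 0 for AREG over day 3, 6 for day 3 over untreated and 11 for AREG over untreated. Over all cells, those outside the epithelium included, the log2 ratios were 0.73 for day 1 over untreated and -0.49 for day 3 over day 1. By the median over cells, the log2 ratios over epithelial cells were 0.62 for day 1 over untreated, -0.55 for day 3 over day 1, 0.39 for AREG over day 3, 0.075 for day 3 over untreated and 0.47 for AREG over untreated. Values in pit-like cells were 0.30 for day 1 over untreated, -0.73 for day 3 over day 1 and 0.44 for AREG over day 3. For chief-like cells this gave 0.23 for AREG over day 3. In parietal-like cells the values were 0.40 for day 1 over untreated, 0.29 for day 3 over day 1 and -0.043 (the opposite direction) for AREG over day 3. Values in proliferating-like cells were -0.16 for day 3 over day 1 and -0.043 for AREG over day 3. With only short members, the log2 ratios over epithelial cells were 1.13 for day 1 over untreated, -0.44 for day 3 over day 1, 0.25 for AREG over day 3, 0.69 for day 3 over untreated and 0.93 for AREG over untreated. With only long members, the log2 ratios over epithelial cells were 0.53 for day 1 over untreated, -0.61 for day 3 over day 1, 0.27 for AREG over day 3, -0.084 (the opposite direction) for day 3 over untreated and 0.19 for AREG over untreated. With only long members, the counts of members called were 9 for day 1 over untreated, 13 for day 3 over day 1, 0 for AREG over day 3, 2 for day 3 over untreated and 3 for AREG over untreated. Without chief-like cells, the log2 ratios over epithelial cells were 0.56 for day 1 over untreated, -0.48 for day 3 over day 1, 0.24 for AREG over day 3, 0.078 for day 3 over untreated and 0.32 for AREG over untreated. Without chief-like cells, the counts of members called were 10 for day 3 over untreated. Without the day 1 cluster led by S100a6, the log2 ratios over epithelial cells were 0.37 for day 1 over untreated and -0.12 for day 3 over day 1. Without the day 1 cluster led by S100a6, the counts of members called were 27 for day 1 over untreated and 1 for day 3 over day 1. At Leiden resolution 2, the pit-like class included a cluster with 1183 day 1 cells and the proliferating-like class one with 1216. S100a6 was among the leading genes of both, and the reported classes held 440 and 112 day 1 cells. Values against day 1 in these classes thus describe largely different cells. The log2 ratios were, in pit-like cells 0.46 for day 1 over untreated, -0.71 for day 3 over day 1 and 0.36 for AREG over day 3. Values in parietal-like cells were 0.40 for day 1 over untreated, 0.10 for day 3 over day 1 and 0.024 for AREG over day 3. For proliferating-like cells this gave 0.42 for day 1 over untreated, -0.20 for day 3 over day 1 and 0.014 (the opposite direction) for AREG over day 3. At Leiden resolution 0.5, the log2 ratios were, in pit-like cells 0.40 for AREG over day 3. Values in chief-like cells were 0.39 for AREG over day 3. For parietal-like cells this gave 0.31 for day 1 over untreated and 0.0089 for AREG over day 3. In proliferating-like cells the values were 0.11 for day 1 over untreated and 0.13 (the opposite direction) for day 3 over day 1. That class included a cluster led by S100a6 with 2403 day 1 cells, so these values also describe largely different cells. At 2-fold, the counts of members called were 19 for day 1 over untreated, 0 for day 3 over day 1, 0 for AREG over day 3, 4 for day 3 over untreated and 8 for AREG over untreated. With a pseudocount of 10 CPM, the counts of members called were 1 for AREG over day 3. At 1.5-fold, the counts of members differing within the family were 10 for day 1 over untreated, 0 for day 3 over day 1, 1 for AREG over day 3, 10 for day 3 over untreated and 10 for AREG over untreated.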
